A study of Arabidopsis thaliana with 12 samples.

Results

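The genes described here encode the 2 kinds of enzyme that cut the pectin backbone in Arabidopsis thaliana, namely 26 pectate lyase-like genes and 8 characterised polygalacturonases. They were taken by locus from a list of these families, chosen with earlier results of these data known. All 34 were found among the 27827 loci of the expression table. Total RNA of whole etiolated seedlings was hybridised to 12 Affymetrix arrays, 3 for each of 4 genotypes, all in the Col-0 background. The cnu1 and cnu2 seedlings were suppressor mutants isolated from PMEIox, so both still carried the PMEIox transgene. PMEIox seedlings overexpressed a pectin methylesterase inhibitor, and Col-0 was the wild type. In the published study of these lines cnu1 is a mutation in the brassinosteroid receptor gene BRI1 and cnu2 a mutation in the receptor-like protein gene RLP44. Seeds were kept cold for 48 hours, given 6 hours of white light at 100 µmol m-2 s-1 and grown for 4 days at 22 °C in darkness. The 3 biological replicates of each genotype, A, B and C, were collected in different weeks. The promoter of the transgene, the number of transgenic lines and the number of seedlings per sample are not given in the sources used here.

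Homogalacturonan, the main pectin of the primary wall, is deposited in methylesterified form. Pectin methylesterases remove the methyl groups, and pectin methylesterase inhibitors block them. Pectate lyases cut de-esterified homogalacturonan by beta-elimination and need calcium, whereas polygalacturonases hydrolyse the same bond. Both act in wall loosening during cell growth, in cell separation during abscission, organ dehiscence and pollen release, and in pollen tube growth. The comparisons asked whether transcripts for these enzymes differed when methylesterase activity was inhibited, and whether they differed again in the 2 suppressor mutants.

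Values are log2 expression levels, so a difference of 1 is a 2-fold difference. Over all loci they ran from 0.785 to 13.9 with a median of 5.47, and the correlation between any 2 arrays lay between 0.983 and 0.994. A locus was called higher or lower when limma's moderated test, fitted to all loci on 12 arrays, gave a Benjamini-Hochberg adjusted p under 0.05. The inhibitor gene PMEI5 checked the labels: it read 12.62, 12.69 and 12.62 in cnu1, 12.53, 12.62 and 12.69 in cnu2, 12.69, 12.64 and 12.64 in PMEIox, and 8.19, 5.05 and 4.49 in Col-0. Col-0 replicate A stood above the other two Col-0 arrays for this gene, so results are also given without it where they change. BRI1 read 7.35 to 7.94 and RLP44 2.57 to 3.28 over the 12 arrays, which does not check the mutations. PORA, the protochlorophyllide oxidoreductase of etiolated tissue, averaged 9.0, and RBCS1A, a Rubisco small subunit of leaves, read 13.16 to 13.34 on all arrays. The other light-grown leaf markers were lower: CAB1 averaged 9.68, RBCS3B 6.72, CAB3 4.82 and LHB1B1 4.25. Whole seedlings mix tissues, so fewer cells of a type and less RNA per cell cannot be told apart.

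Of the 34 genes, 13 had a mean over all arrays in the lowest 40% of loci, at or under 4.68, where hybridisation signal is weakest and no detection call was available. These include the pollen gene AT59 (AT1G14420), RHS14 (AT4G22080, named as root hair specific), QRT2, QRT3, PGX3 and PGLR. The other 21 lay above that level, up to 10.31 for AT1G04680. AT4G22080 and AT4G22090 are neighbouring genes of the same family, and signal shared between such relatives on the array could not be separated.

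**Figure D1:**
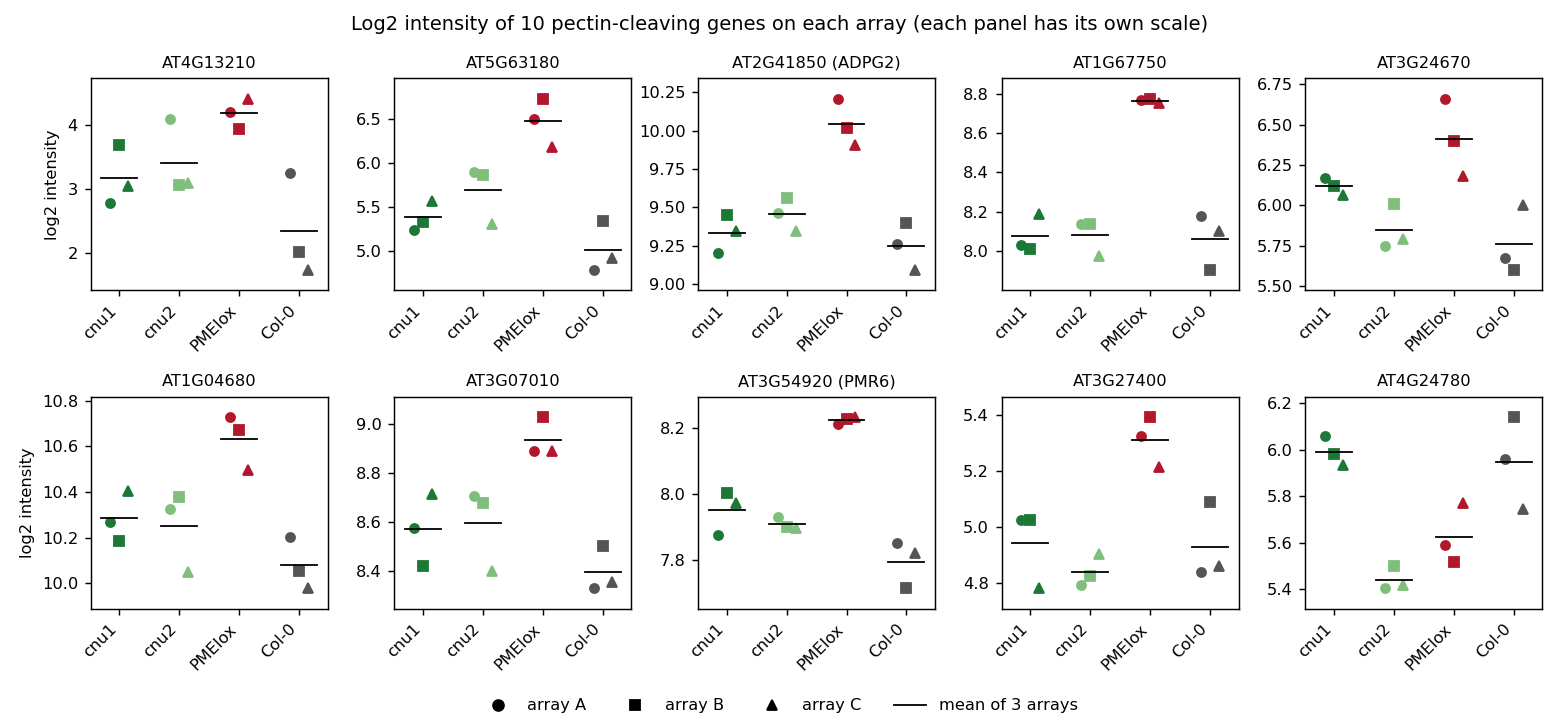
Log2 expression of the 10 genes that passed at least 1 test, 1 panel per gene, with 1 point per array and 3 arrays for each of cnu1, cnu2, PMEIox and Col-0 along the horizontal axis; horizontal bars are genotype means. For AT1G67750 the PMEIox arrays read 8.75 to 8.77, above every array of the other genotypes.

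PMEIox seedlings had more transcript of several pectin-cleaving enzymes than Col-0 seedlings. In PMEIox 8 of the 34 genes rose and 0 fell, namely 7 pectate lyase-like genes and 1 polygalacturonase, ADPG2. Across all loci 5.25% were called in this comparison, 2.79% higher and 2.46% lower. The differences of the 8 ran from 0.43 to 1.85 with a median of 0.68. The median over all 34 genes was 0.26, against -0.0049 over all loci. On 15 genes every PMEIox array read above every Col-0 array and on 3 genes below, where all loci gave 11.6% and 11.3%.

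The pectate lyase-like gene AT4G13210 had the widest gap between the means. It read 4.20, 3.93 and 4.40 in PMEIox, against 3.25, 2.01 and 1.73 in Col-0. The groups did not overlap, and Col-0 replicate A was the highest of the Col-0 arrays, as it was for PMEI5. The difference was 1.85 ± 0.38 (SE, n = 3 each), with a limma adjusted p of 0.0147, and it was 2.31 without Col-0 replicate A. The call was lost without Col-0 replicate B (adjusted p 0.0646), Col-0 replicate C (difference 1.55, adjusted p 0.0558), PMEIox replicate A (adjusted p 0.0522) or PMEIox replicate C (adjusted p 0.0553). This gene is the only one of the 8 among the lowest 40% of loci, and with Col-0 readings this weak and no detection call the size of its difference is uncertain.

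AT5G63180, another pectate lyase-like gene, read 6.50, 6.73 and 6.18 in PMEIox, against 4.78, 5.34 and 4.92 in Col-0. The lowest PMEIox array thus lay well above the highest Col-0 array. The difference was 1.46 ± 0.20 (SE, n = 3 each), or 2.75-fold, with a limma adjusted p of 0.000999.

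AT1G67750 had closely grouped replicates. It read 8.77, 8.77 and 8.75 in PMEIox, against 8.18, 7.91 and 8.10 in Col-0. The groups were apart, and the spread lay almost wholly in Col-0. The difference was 0.70 ± 0.10 (SE, n = 3 each), 1.63-fold, with a limma adjusted p of 0.0013.

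AT3G24670 read 6.66, 6.40 and 6.18 in PMEIox, against 5.67, 5.6 and 6.00 in Col-0. The groups were separate, but the lowest PMEIox array and the highest Col-0 array were close. The difference was 0.65 ± 0.14 (SE, n = 3 each), with a limma adjusted p of 0.0173. AT1G04680 read 10.73, 10.67 and 10.49 in PMEIox, against 10.20, 10.05 and 9.98 in Col-0, without overlap. Its difference was 0.55 ± 0.12 (SE, n = 3 each), with a limma adjusted p of 0.0161.

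AT3G07010 read 8.89, 9.03 and 8.89 in PMEIox, against 8.33, 8.5 and 8.35 in Col-0, and the groups did not overlap. The difference was 0.54 ± 0.11 (SE, n = 3 each), with a limma adjusted p of 0.0161. PMR6 (AT3G54920), whose loss makes leaves resistant to powdery mildew, had the smallest difference of the 8. It read 8.21, 8.23 and 8.23 in PMEIox, against 7.85, 7.71 and 7.82 in Col-0. All PMEIox arrays lay above all Col-0 arrays, and the difference of 0.43 ± 0.08 (SE, n = 3 each) had a limma adjusted p of 0.0089.

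Among the polygalacturonases, ADPG2 (AT2G41850), which acts in floral organ abscission and in silique and anther dehiscence, was the gene that rose. It read 10.21, 10.02 and 9.90 in PMEIox, against 9.26, 9.40 and 9.09 in Col-0. The groups were well apart, and the difference was 0.79 ± 0.12 (SE, n = 3 each), 1.73-fold, with a limma adjusted p of 0.0019. Its close relative ADPG1 (AT3G57510), with the same roles in dehiscence, read 6.16, 5.92 and 5.66 in PMEIox, against 5.67, 5.41 and 5.47 in Col-0. These groups overlapped, and the difference of 0.39 had a limma adjusted p of 0.183.

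Of the polygalacturonases of cell expansion, PGX1 (AT3G26610) read 6.03, 5.76 and 5.51 in PMEIox, against 6.27, 6.25 and 6.10 in Col-0. All PMEIox arrays lay below all Col-0 arrays, yet the difference of -0.44 had a limma adjusted p of 0.0945. It was called lower without PMEIox replicate A, at -0.57 with an adjusted p of 0.0431, and without the lowest 40% of loci, with an adjusted p of 0.0454. PGX2 (AT1G78400) differed by 0.13 and PGX3 (AT1G48100), which acts in stomata, by -0.32, with limma adjusted p-values of 0.758 and 0.373. QRT2 (AT3G07970), of anther dehiscence, differed by -0.11, and QRT3 (AT4G20050), which degrades the wall around the pollen tetrad, by 0.063. PGLR (AT5G14650) differed by 0.33 with a limma adjusted p of 0.166. Apart from PGX1 as stated, these genes did not pass the test in this comparison.

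The 26 genes that did not pass had differences between -0.44 and 0.40. Beyond those above, AT3G27400 came closest among the pectate lyase-like genes to a higher call at 0.38, with a limma adjusted p of 0.0609. AT3G09540 followed at 0.40, with a limma adjusted p of 0.0779. AT1G11920 came closest to a lower call at -0.40, with a limma adjusted p of 0.0756. At an unadjusted p under 0.05, 15 of the 34 genes were higher and 3 lower, where 18.5% of all loci passed in either direction.

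The counts moved with single arrays: 6 genes were called without Col-0 replicate A, with AT3G07010 and AT3G24670 lost, and 5 were called without Col-0 replicate C or without PMEIox replicate B. AT5G63180, AT1G67750, ADPG2 and PMR6 were called under each of the 12 omissions of 1 array.

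**Figure D2:**
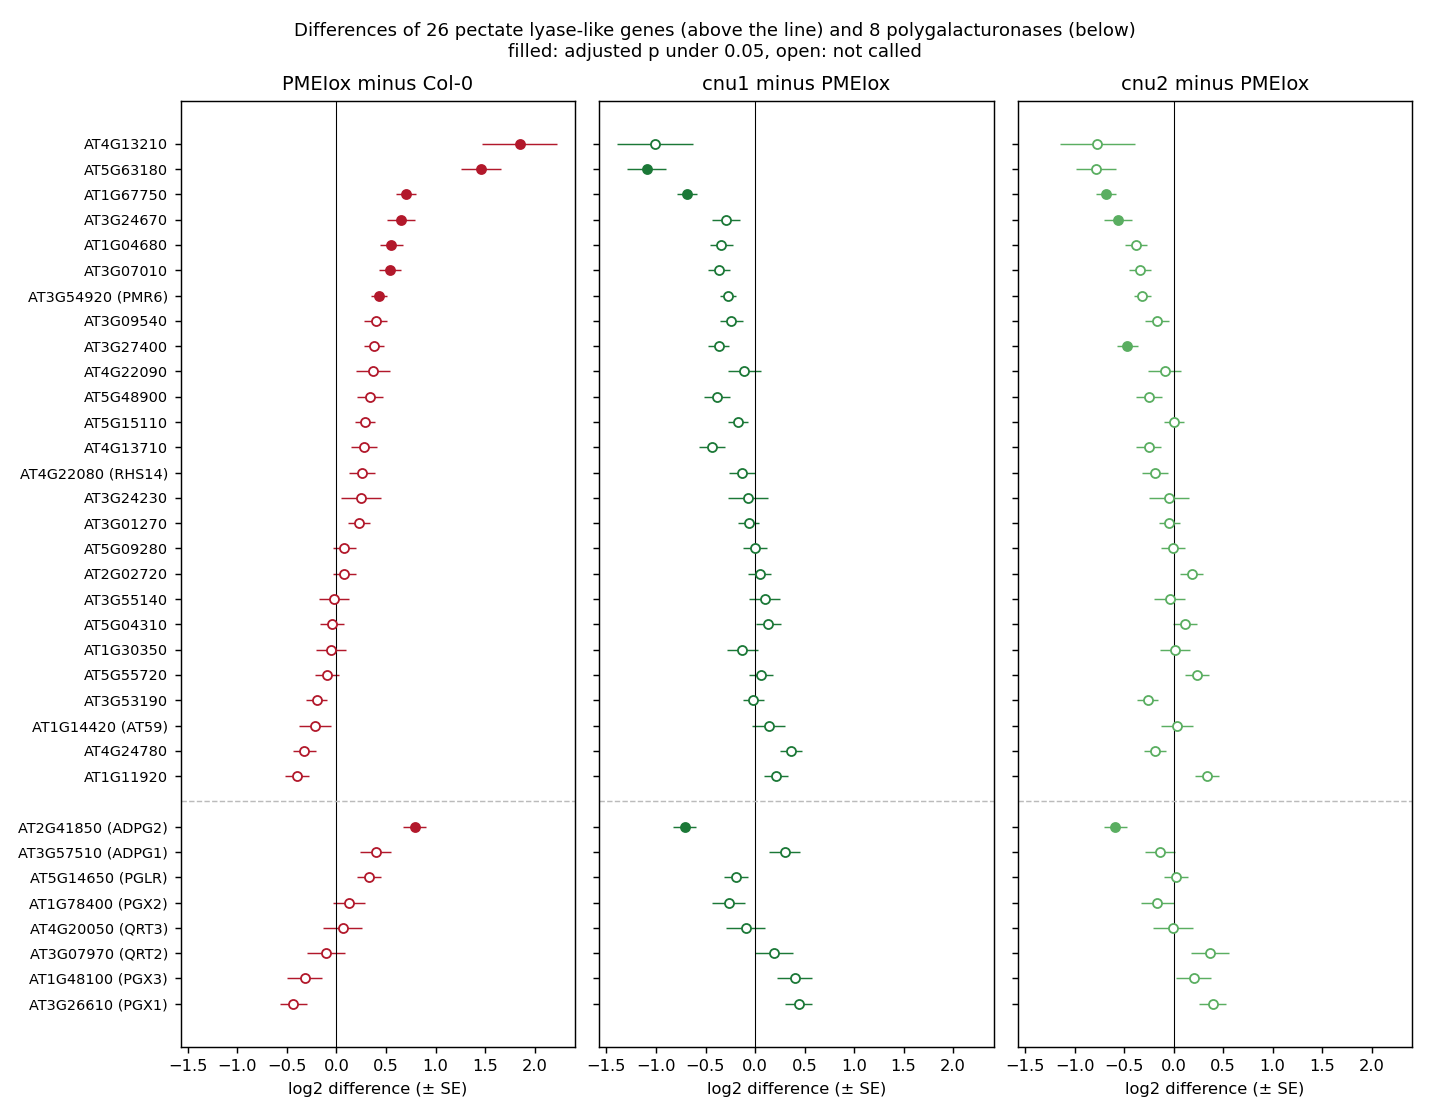
Log2 difference for each of the 34 genes in PMEIox minus Col-0, cnu1 minus PMEIox and cnu2 minus PMEIox, with bars for the standard error; filled points passed an adjusted p under 0.05. The filled points lie right of 0 in PMEIox minus Col-0 (8 genes) and left of 0 in the suppressors (3 genes in cnu1 and 4 in cnu2).

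Both suppressor mutants had less transcript of a few of these genes than PMEIox. In cnu1 3 genes fell and 0 rose relative to PMEIox, where 6.44% of all loci were called, 3.54% higher and 2.9% lower. These were AT5G63180, ADPG2 and AT1G67750. In cnu2 4 genes fell and 0 rose, where 3.25% of all loci were called, 1.78% higher and 1.48% lower. These were AT1G67750, ADPG2, AT3G24670 and AT3G27400. The 2 comparisons with PMEIox share the PMEIox arrays with each other and with the comparison of PMEIox and Col-0, so a high reading on those arrays enters all of them.

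AT5G63180 read 5.23, 5.33 and 5.57 in cnu1 and 5.90, 5.86 and 5.30 in cnu2, all below the lowest PMEIox array at 6.18. The difference from PMEIox was -1.09 ± 0.20 in cnu1 (SE, n = 3 each), with a limma adjusted p of 0.0054. In cnu2 it was -0.78, with a limma adjusted p of 0.0542, just outside the threshold, and with the replicate letter as a replicate block it was called, with an adjusted p of 0.0457. Whether cnu1 and cnu2 differ is a separate comparison, and it gave -0.31 with a 95% interval of -0.74 to 0.12.

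AT1G67750 read 8.03, 8.01 and 8.19 in cnu1 and 8.14, 8.14 and 7.97 in cnu2, close to the 7.91 to 8.18 of Col-0. It fell by 0.69 in cnu1 and by 0.68 in cnu2 relative to PMEIox (SE 0.10, n = 3 each), with limma adjusted p-values of 0.0012 and 0.0029. It passed in both mutants under each of the 12 omissions of 1 array.

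ADPG2 read 9.20, 9.45 and 9.34 in cnu1 and 9.46, 9.56 and 9.34 in cnu2, all below the lowest PMEIox array at 9.90. It fell by 0.71 in cnu1 and by 0.59 in cnu2 relative to PMEIox (SE 0.12, n = 3 each), with limma adjusted p-values of 0.0029 and 0.0193. The cnu2 call was lost in 4 of the 12 omissions, those of cnu2 replicates A and C and of PMEIox replicates A and B.

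AT3G24670 read 6.17, 6.12 and 6.06 in cnu1 and 5.75, 6.00 and 5.79 in cnu2. The cnu1 arrays lay just under the lowest PMEIox array at 6.18, with a difference of -0.30 and a limma adjusted p of 0.269. In cnu2 the difference was -0.56 ± 0.14 (SE, n = 3 each), with a limma adjusted p just under the threshold of 0.05. That call held in only 2 of the 12 omissions, with an adjusted p of up to 0.172, and it was lost without Col-0 replicate A. With the replicate block its adjusted p was 0.0769.

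AT3G27400 read 5.03, 5.03 and 4.78 in cnu1, 4.79, 4.83 and 4.90 in cnu2, 5.33, 5.39 and 5.21 in PMEIox, and 4.84, 5.09 and 4.86 in Col-0. The PMEIox arrays stood above all others. In cnu2 the difference from PMEIox was -0.47 ± 0.11 (SE, n = 3 each), with a limma adjusted p of 0.0344, and it held in 6 of the 12 omissions. The limma adjusted p was 0.0620 for cnu1 minus PMEIox and 0.0609 for PMEIox minus Col-0.

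The remaining genes that were higher in PMEIox than in Col-0 were below PMEIox in both mutants without passing the test. AT4G13210 read 2.77, 3.68 and 3.05 in cnu1 and 4.09, 3.06 and 3.08 in cnu2, with differences from PMEIox of -1.01 and -0.77. One cnu2 array, replicate A, reached the range of PMEIox. PMR6 read 7.88, 8.0 and 7.97 in cnu1 and 7.93, 7.90 and 7.90 in cnu2, below every PMEIox array. Its limma adjusted p-values against PMEIox were 0.0707 in cnu1 and 0.0606 in cnu2.

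AT1G04680 read 10.27, 10.19 and 10.41 in cnu1 and 10.33, 10.38 and 10.05 in cnu2. AT3G07010 read 8.58, 8.42 and 8.71 in cnu1 and 8.71, 8.68 and 8.40 in cnu2. Both genes lay below all PMEIox arrays in both mutants, with differences from -0.38 to -0.34 and limma adjusted p-values between 0.0823 and 0.138. Thus all 8 genes had means below PMEIox in cnu1 and in cnu2, of which 3 passed the test in each, with medians of -0.53 in cnu1 and -0.58 in cnu2. The 8 had been picked by high PMEIox readings relative to Col-0 on the same arrays, which by itself favours that order. Of all 34 genes, 23 lay below PMEIox in cnu1 and 23 in cnu2, against 14008 and 13898 of the 27827 loci.

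**Figure D3:**
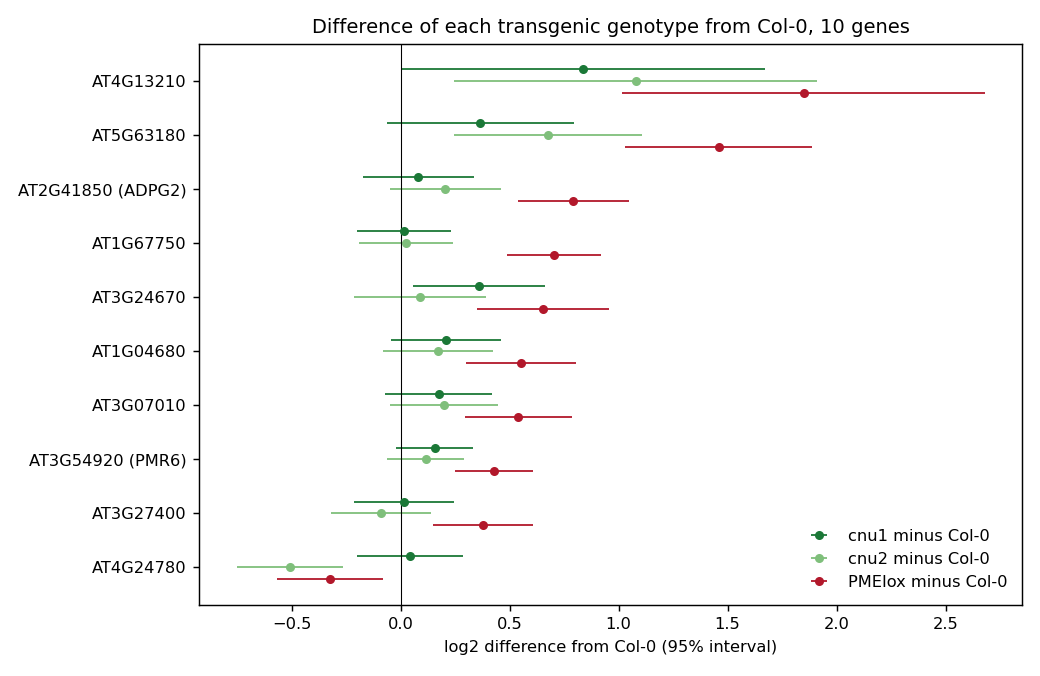
Log2 difference from Col-0 in cnu1, cnu2 and PMEIox for the 10 genes that passed at least 1 test, with bars for the 95% confidence interval. For the 8 genes that rose the PMEIox point lies to the right of both suppressor points.

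Set against Col-0, 0 of the 34 genes passed the test in cnu1 and 0 in cnu2. Across all loci 0.622% were called in cnu1 and 0.187% in cnu2. At an unadjusted p under 0.05, limma gave 3 genes in cnu1, all higher, and 7 in cnu2, 5 higher and 2 lower, where all loci gave 13.9% and 11.3%. All 8 genes that rose in PMEIox had means above Col-0 in both mutants, with a median of 0.19 in each. These genes were picked by low Col-0 readings relative to PMEIox on the same arrays, which by itself favours that order. Of all 34 genes, 25 lay above Col-0 in cnu1 and 24 in cnu2, against 14094 and 14029 of the 27827 loci. The absence of calls does not show equal levels, because the intervals leave room for a difference. For AT1G67750 the 95% interval was -0.20 to 0.23 in cnu1 and -0.19 to 0.24 in cnu2, both short of the 0.70 seen in PMEIox. For ADPG2 it was -0.17 to 0.33 in cnu1 and -0.05 to 0.46 in cnu2. For AT5G63180 in cnu2 it was 0.25 to 1.11, around a difference of 0.68. The limma adjusted p of that difference was 0.221, and 0.188 with the replicate block. PMR6 arrays of cnu1 and cnu2 all lay above those of Col-0, at limma adjusted p-values of 0.428 and 0.641.

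ADPG1 was the member nearest to a call in cnu1 relative to Col-0. It read 6.34, 5.89 and 6.40 in cnu1, against 5.67, 5.41 and 5.47 in Col-0. The groups did not overlap, and the difference was 0.69 ± 0.15 (SE, n = 3 each), with a limma adjusted p of 0.0741. It passed without cnu1 replicate B. In cnu2 it read 5.78, 5.76 and 5.78, a difference of 0.25 from Col-0.

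Between the suppressors 0 genes passed, where 0.568% of all loci were called, and 3 had an unadjusted p under 0.05 by limma, where all loci gave 8.55%. The member nearest to a call was AT4G24780, a pectate lyase-like gene. It read 6.06, 5.98 and 5.94 in cnu1, 5.40, 5.5 and 5.42 in cnu2, 5.59, 5.51 and 5.77 in PMEIox, and 5.96, 6.14 and 5.74 in Col-0. The cnu1 arrays lay above every cnu2 and PMEIox array and within the range of Col-0. The difference between cnu1 and cnu2 was 0.55 ± 0.11 (SE, n = 3 each), with a 95% interval of 0.31 to 0.80 and a limma adjusted p of 0.0556. It passed when Col-0 replicate B or C was left out.

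A single test of any difference among the 4 genotypes, limma's moderated F test, called 6 of the 34 genes, where 6.02% of all loci were called. They were AT1G67750, AT5G63180, ADPG2, AT4G24780, PMR6 and AT3G24670, with adjusted p-values from 0.0018 to 0.0412. Without Col-0 replicate A 5 were called, with PMR6 and AT3G24670 lost and AT4G13210 gained. The count was 3 without PMEIox replicate A and 4 without cnu1 replicate A or C, cnu2 replicate A or PMEIox replicate B. PMEIox had the highest of the 4 means for 19 of the 34 genes, where 29.1% of all loci had it highest, and Col-0 the lowest for 18, where 25.6% of all loci had it lowest. The pectate lyase-like genes held most of these, 16 of 26 highest in PMEIox, whereas 3 of the 8 polygalacturonases were highest in PMEIox. This was not particular to them: 20 of 32 pectin methylesterase genes and 7 of 12 pectin acetylesterase genes were also highest in PMEIox.

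Other genes of pectin metabolism were examined in the same comparison of PMEIox and Col-0. Among 58 further polygalacturonase genes, 37 of them in the lowest 40% of loci, 2 rose and 3 fell in PMEIox, with a median of 0.022. AT1G10640 fell by 1.61, AT1G23460 by 0.89 and AT1G70500 by 0.75, while AT3G06770 rose by 0.97. AT1G10640 was higher in both suppressors than in PMEIox, by 1.79 in cnu1 and 1.18 in cnu2. AT1G23460 was also higher than in PMEIox, by 1.04 in cnu1 and 0.81 in cnu2. Over all loci 2.79% rose and 2.46% fell, so the count among these genes is near the background and is not a result about them.

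The lists below are likewise to be read against 2.79% of all loci rising and 2.46% falling. Of 32 pectin methylesterase genes, whose products make the substrate of both enzyme families, 5 rose and 1 fell in PMEIox, with a median of 0.14. AT2G26440 rose by 1.83, AT5G04970 by 1.58, ATPMEPCRB (AT4G02330) by 0.68 and AT3G43270 by 0.61. Without Col-0 replicate A or C, or PMEIox replicate C, 3 were called, and without PMEIox replicate B 2 were called. Of 12 pectin acetylesterase genes, which remove acetyl groups from pectin, 3 rose and 0 fell, with a median of 0.30. These were AT4G19410 at 0.47, AT3G05910 at 0.46 and AT5G26670 at 0.59, and 1 was called without Col-0 replicate A or B or PMEIox replicate B or C. Of the 2 polygalacturonase-inhibiting proteins, which bind fungal polygalacturonases, PGIP2 (AT5G06870) rose by 0.54. Calls numbered 0 of 7 rhamnogalacturonan lyase-like genes, 0 of 7 abscission and dehiscence regulators, 0 of 4 oligogalacturonide oxidases and 0 of 3 polygalacturonase beta-subunit-like genes. At an unadjusted p under 0.05 limma gave 1 rhamnogalacturonan lyase-like gene, lower, and 0 of the other three lists.

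**Figure D4:**
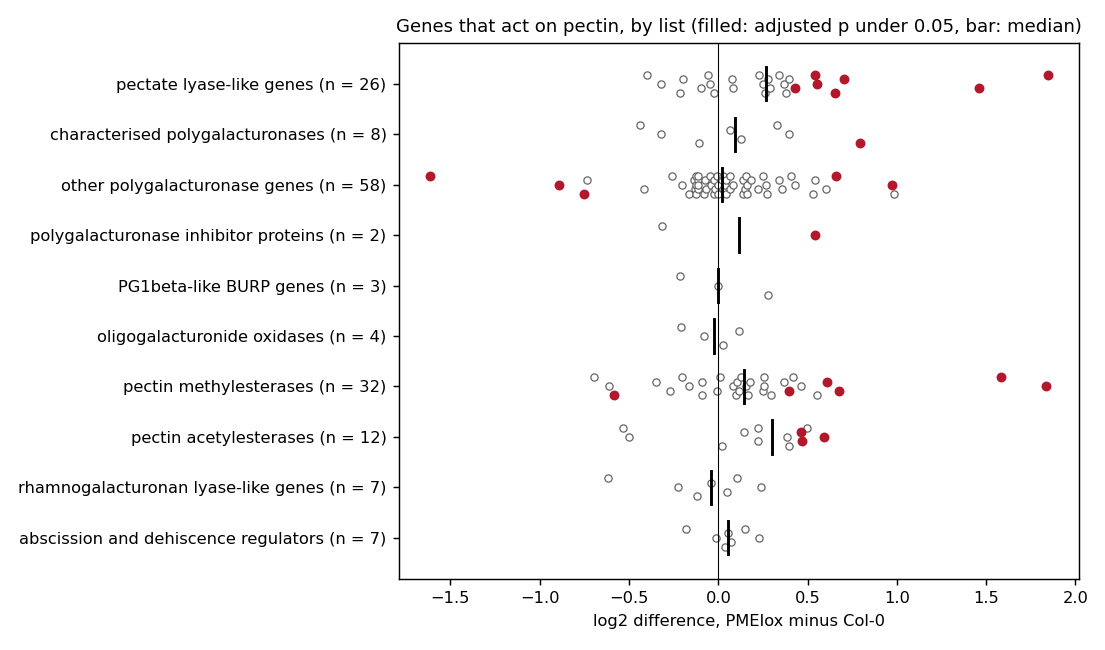
Log2 difference in PMEIox minus Col-0 for every gene of the pectin lists, 1 row per list; each point is a gene, filled where it passed an adjusted p under 0.05, and the vertical mark is the list's median. The pectate lyase-like genes have 7 filled points, all right of 0, and the further polygalacturonases have 2 right and 3 left of 0.

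Markers of tissues that could hold these enzymes also differed between the genotypes. All 10 seed markers rose in PMEIox relative to Col-0, with summed linear intensities of 4611 to 6019 in PMEIox, against 529 to 659 in Col-0. In the suppressors these sums were 518 to 1491 in cnu1 and 538 to 1483 in cnu2. Of 14 root hair markers 5 rose, with sums of 404 to 695 in PMEIox, against 286 to 312 in Col-0, and 3 were called without Col-0 replicate A. Root hair sums in cnu1, at 435 to 477, lay within the PMEIox range and above every Col-0 array. In cnu2 they were 314 to 345, below every PMEIox array. Of 10 xylem markers 6 fell, with sums of 682 to 788 in PMEIox, against 1281 to 1639 in Col-0. The seed markers were thus higher and the xylem markers lower in PMEIox, where the 8 genes were higher, and in the suppressors seed sums lay below those of PMEIox and xylem sums above them. Their part in the differences of the pectin-cleaving genes was not tested. Pollen markers were called in 0 of 6 genes and summed to 62 to 71 in PMEIox, against 58 to 66 in Col-0, while root markers were called in 0 of 8 and summed to 4209 to 4745 in PMEIox, against 3994 to 4747 in Col-0. At an unadjusted p under 0.05 limma gave 0 pollen markers and 2 root markers, 1 higher and 1 lower. No marker was listed at 0 on any array, but the lowest value of any locus was 0.785, so this says nothing about detection.

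**Figure D5:**
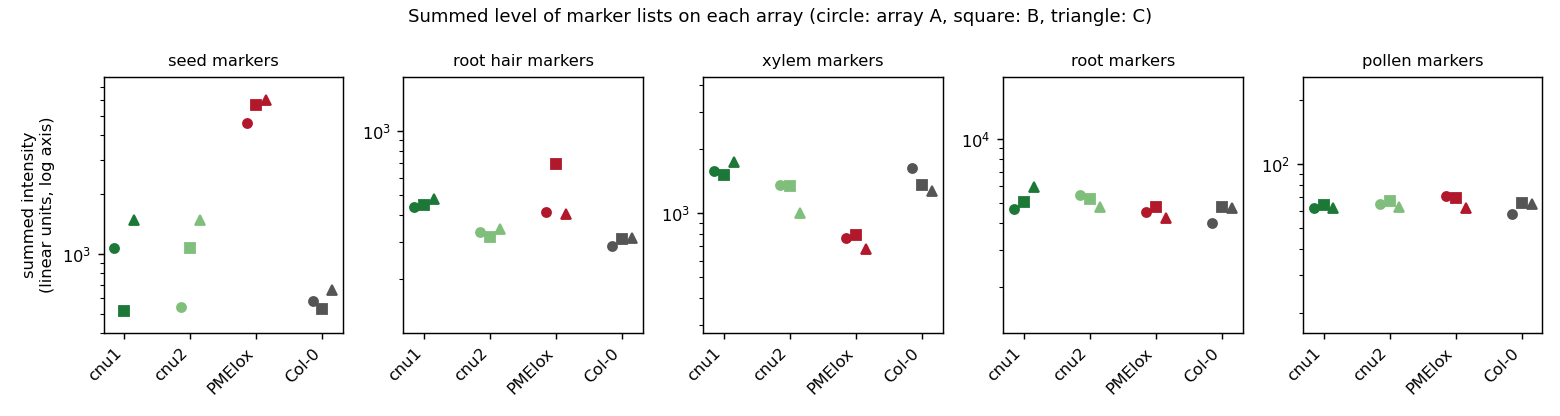
Summed linear intensity of each marker list on every array, on a log axis, by genotype; circles, squares and triangles are replicates A, B and C. The seed marker sums of PMEIox lie at or above 4611 and those of every other array at or below 1491.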

How the data were processed

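Whole etiolated seedlings of 4 genotypes were profiled on 12 Affymetrix arrays, 3 per genotype. The authors deposited log2 expression values, 1 per locus and array, and all 12 arrays share the same sorted values, so they had been normalised between arrays before deposit. The log2 scale was read from the range of the values. The array design, background correction, probe summary, software and log base are not given in the sources used here. Genotype and replicate were taken per the labels. Means, standard errors and tests came from limma 3.58.1 in R 4.3.3, with 4 genotype means and shared variances (8 residual and 4.06 prior degrees of freedom), and p-values were adjusted by Benjamini-Hochberg over all 27827 loci. The procedure was tested on simulated data. Genes passing any of 6 pairwise comparisons or the F test are given array by array, the others by ranges and counts. Of each further list, up to 4 called loci with the smallest adjusted p in PMEIox against Col-0 are named, and any other locus named was chosen after its values were seen. The genes and lists were chosen with earlier results of these data known. Loci were matched to a RefSeq gene table of the TAIR10.1 assembly: all 34 matched and 7 had a symbol there, the other names being in common use. Deviations from the genotype means were correlated between same-letter arrays, since the labels' design text gives different harvest weeks without saying that a letter marks a week. In cnu2 and Col-0 all 3 pairs had correlations above 0.1 (0.100 to 0.173), so these are taken as paired, and the replicate block left cnu2 against Col-0 at 0 calls. The intervals and p-values given for that comparison come from the fit without the block, except where the block is named. An exact permutation test of 3 against 3 arrays cannot go below 0.1 and was not used. The number of arrays limits the precision: the median standard error of a difference was 0.126 for the 34 genes. Alternatives were another normalisation, a filter on low loci, other variance models, array weights, a replicate block, fits to only the pair compared, a size limit of at least 2-fold and the omission of each array.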

Additional observations from a re-analysis of the deposited data

How the results depend on the processing

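No called difference changed sign under any alternative, and quantile normalisation and median centring kept the call counts. Both outcomes were fixed in advance and are no check: called groups did not overlap, and all 12 arrays shared the same sorted values. Centring on 11 reference genes shifted genotypes by at most 0.083. It gave 1 call between cnu1 and cnu2 (AT4G24780), 5 in cnu2 against PMEIox (with AT5G63180) and 5 by the F test. Without the lowest 40% of loci, which leaves fewer tests, limma called 11 genes in PMEIox against Col-0 (9 higher, 2 lower). It called 9 in cnu1 against PMEIox (AT4G24780 and PGX1 higher, the others lower) and 7 in cnu2 against PMEIox (all lower). It called 1 each in cnu1 against Col-0 (ADPG1), cnu2 against Col-0 and cnu1 against cnu2, and 11 by the F test. Variance settings with trend and robust estimation gave 9, 8, 7, 1, 1 and 1 in that order and 11 by the F test. Array weights gave 6 in cnu1 against PMEIox (AT4G24780 higher, the others lower) and 1 between the suppressors (AT4G24780). With the compared genotypes alone 1 gene was called in cnu2 against PMEIox and 6 in PMEIox against Col-0. A minimum fold of 2 left 2 genes in PMEIox against Col-0 (AT4G13210 and AT5G63180), 1 in cnu1 against PMEIox and 0 in cnu2 against PMEIox. Apart from the smaller number of loci or arrays in some fits, the cause was not tested. Omitting 1 array at a time gave 5 to 9 genes in PMEIox against Col-0, 3 to 4 in cnu1 against PMEIox, 1 to 4 in cnu2 against PMEIox, 0 to 1 in cnu1 against Col-0, 0 to 1 in cnu1 against cnu2 and 3 to 6 by the F test. The low values in cnu2 against PMEIox came without cnu2 replicate A or C or PMEIox replicate A or B (1 gene) and without cnu2 replicate B (2 genes). The replicate letters paired the arrays in part: of 9 same-letter pairs among cnu2, PMEIox and Col-0, 6 had deviations correlated above 0.1 and 9 were best matched by their own letter, against 1 and 2 of the 9 pairs with a cnu1 array. Of the 6 genotype pairs, cnu2 and Col-0 alone had all 3 correlations above 0.1. With the letter as a replicate block limma called 8, 3 and 4 genes in PMEIox against Col-0, cnu1 against PMEIox and cnu2 against PMEIox, 0 in the other pairs and 5 by the F test. In cnu2 against PMEIox AT3G24670 lost its call and AT5G63180 gained one. Counts over all loci moved as well. Over all alternatives and omissions they ran from 319 to 2043 in PMEIox against Col-0, 389 to 2487 in cnu1 against PMEIox and 196 to 1490 in cnu2 against PMEIox. They ran from 45 to 631 in cnu1 against Col-0, 0 to 236 in cnu2 against Col-0 and 59 to 267 in cnu1 against cnu2. In PMEIox against Col-0 the calls among further lists ran, over the alternatives other than omissions, from 1 to 7 for the further polygalacturonases, 2 to 8 for pectin methylesterases, 0 to 5 for pectin acetylesterases, 0 to 1 for rhamnogalacturonan lyase-like genes, 1 to 5 for root hair, 2 to 8 for xylem and 9 to 10 for seed markers. Signal over background could not be judged without detection calls, which limits the 13 low genes most.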
